A study of Arabidopsis thaliana with 9 samples.

Results

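LHY, CCA1 and REVEILLE 1 to 8 (RVE1 to RVE8) form the family of MYB-like transcription factors at the morning side of the plant circadian clock. The 10 genes were found by locus identifier among the 25320 genes of the expression table, and 10 of 10 passed the filter on low values (FPKM of 1 or more in 3 libraries), with RVE3 reaching that number only through its cold libraries. Transcripts were measured by RNA sequencing of stems and leaves from 2-week wild-type Arabidopsis thaliana seedlings grown in soil, with 3 libraries in each of 3 groups. Cold-once plants (day 1) had 1 cycle of 6 h at 4 °C followed by 18 h at room temperature, repeated-cold plants (day 4) had 4 such cycles, and control plants (day 0) stayed under normal growth conditions. The labels also name 6 h at 0 °C after the cycles and do not say whether sampling came before or after it. They give the day but no hour of sampling, and neither the ecotype nor whether replicates were separate cultures, so the p-values reflect only how far these samples scatter, which may be technical. Sampling day and treatment differed together between the groups and cannot be told apart.

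The proteins carry a single MYB-like DNA-binding domain and bind the evening element, a short sequence in promoters of genes that peak late in the day. LHY and CCA1 accumulate around dawn and repress evening genes, whose products in turn repress LHY and CCA1. RVE8 and its close relatives bind the same element but activate transcription, together with the LNK cofactors, and RVE1, RVE2 and RVE7 act mostly on outputs of the clock. In leaves the oscillator gates the response to cold, and cold in turn changes the level and splicing of clock transcripts. The level of such a gene depends on the hour, so the unstated hour of sampling limits every comparison below, and its part in the results was not tested.

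The stretch before each gene was read from the RefSeq genome TAIR10.1, whose positions for the 10 genes equal those of the table, and 5 short motifs were searched on both strands of the 300 bases before the annotated start. The motifs were the evening element AAAATATCT, the CCA1-binding site AAAAATCT, the G-box CACGTG (bound by light-related bHLH and bZIP factors), the morning element CCACAC and the CRT/DRE core CCGAC (bound by CBF factors). A G-box lay before 6 of the 10 genes, compared with 7.48% of 25120 promoters of the same length. These 6 windows are shown because they hold the match most frequent in the family, each 40 bases long on the strand of the gene with the G-box in capitals.

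LHY: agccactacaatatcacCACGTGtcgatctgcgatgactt

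CCA1: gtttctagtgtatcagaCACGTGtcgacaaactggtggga

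RVE1: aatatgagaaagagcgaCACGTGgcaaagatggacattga

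RVE2: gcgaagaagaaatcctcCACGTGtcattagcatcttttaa

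RVE3: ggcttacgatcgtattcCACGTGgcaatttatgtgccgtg

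RVE5: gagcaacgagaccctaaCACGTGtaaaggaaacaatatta

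The windows lie at chr1:37929-37968 (minus strand) for LHY, chr2:19245381-19245420 (plus) for CCA1, chr5:5693081-5693120 (minus) for RVE1, chr5:14753229-14753268 (minus) for RVE2, chr1:190307-190346 (plus) for RVE3 and chr4:535129-535168 (plus) for RVE5. The G-box began 80 bases before the start in LHY, 193 in CCA1, 111 in RVE1, 163 in RVE2, 84 in RVE3 and 52 in RVE5. The bases after it were tcga in LHY and CCA1, and gcaa in RVE1 and RVE3. Of these 6 genes, LHY, CCA1, RVE1, RVE2 and RVE3 were the 5 members with the highest folds against control in both cold groups, and RVE5 was not called in either. RVE3 passed the filter only through its cold libraries, so its place among the 5 is no support for a link of motif and fold. Such a link was not tested. RVE8 and RVE4, which were also called higher, held no G-box in the window, and RVE8 held none of the 5 motifs. The 300 bases before RVE3 (chr1:190108-190407) lie wholly within AT1G01510 (187145 to 190472), a gene on the same strand. A match here describes letters only and is not a binding site.

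The evening element itself, present in 2.81% of promoters, lay before 1 member, RVE7, 50 bases before its start at chr1:6308269-6308308 (minus strand), with the element in capitals.

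RVE7: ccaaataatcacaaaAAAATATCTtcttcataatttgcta

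The full window of RVE2 is given because its transcript changed most. It held 3 of the motifs: a CCA1-binding site (7.65% of promoters) 244 bases before the start, the G-box, and a CRT/DRE core (14.2% of promoters) that follows the CCA1-binding site directly. The CCA1-binding site and the G-box are in capitals, and the stretch is chr5:14753089-14753388 on the minus strand.

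RVE2 promoter: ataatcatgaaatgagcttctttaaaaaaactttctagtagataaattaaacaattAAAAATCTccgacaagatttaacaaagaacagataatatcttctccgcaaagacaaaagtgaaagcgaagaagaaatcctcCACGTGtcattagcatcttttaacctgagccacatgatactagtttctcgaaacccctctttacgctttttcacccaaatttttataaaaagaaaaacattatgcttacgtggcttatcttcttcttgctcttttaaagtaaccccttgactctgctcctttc

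A CCA1-binding site also lay before RVE6, 58 bases from its start, and morning elements (7.32% of promoters) lay before LHY and RVE4.

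**Figure D1:**
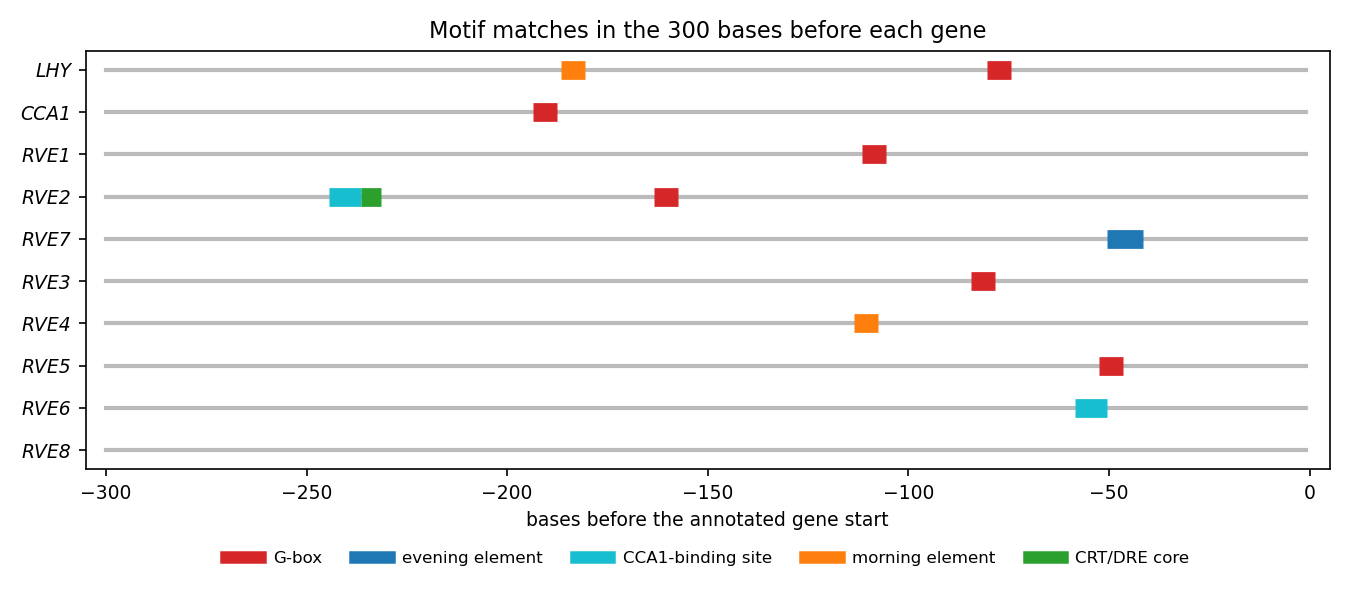
Matches to 5 motifs in the 300 bases before the annotated start of each of the 10 genes, drawn by distance in bases from the start (horizontal axis), with 1 line per gene and 1 colour per motif. A G-box stands before 6 genes, the evening element before RVE7, and RVE8 has no match.

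Depth was 17.98 to 21.49 M reads per library, and the members rested on 20 reads (RVE3 in a control library) to 13201 reads (LHY in a cold-once library). Values are FPKM, fragments per kilobase of the gene adjusted for library size, so levels of different genes are compared per length. Tests used limma on log2(FPKM + 1) over all 17740 genes that passed the filter, changes are differences on that scale with their standard errors, and a gene is called where its p, adjusted by Benjamini-Hochberg, is under 0.05. Relative to control, the change of the median gene was -0.16 for cold once and -0.10 for repeated cold, and repeated cold differed from cold once by 0.06. After either rescaling of the libraries (median-of-ratios or quantile) these medians lay between -0.01 and 0.01. Of 5 leaf markers the summed level was 22100 to 25000 FPKM in cold once, 20300 to 24700 in repeated cold and 16600 to 18200 in control. Of 7 flower markers it was 1.81 to 7.7 FPKM in cold once, 0.974, 1.39 and 28.7 in repeated cold (28.7 in replicate 2), and 9.43 to 42.5 in control, with AP3 listed at 0 in cold once replicate 1 and in repeated cold replicates 1 and 3. Of 5 root markers it was 19 to 64 FPKM in cold once, 11.2 to 39.6 in repeated cold and 25.5 to 63.2 in control, nearly all from PYK10, and 3 seed markers summed to at most 0.0892 FPKM in any library. The leaf sum lay above control in all 6 cold libraries, with 3 of the 5 leaf markers called higher and 1 lower in each cold group, and its part in the results was not tested. The flower sum lay below control in cold once, with 1 of 7 markers (SEP3) called lower, and overlapped control in repeated cold, with 0 of 7 called. With a flower marker score as a covariate, 7 members were called higher in cold once and 7 in repeated cold, as without it.

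LHY and CCA1, the dawn repressors, were among the most abundant members after cold. LHY (AT1G01060, chromosome 1, 33365 to 37871, minus strand) had 173, 188 and 186 FPKM in cold once, 161, 114 and 148 FPKM in repeated cold, and 4.61, 2.55 and 3.91 FPKM in control. Every cold library lay far above every control library. Mean LHY was 49.4-fold higher in cold once (log2 change 5.31 ± 0.18, adjusted p = 1.82e-07) and 38.2-fold higher in repeated cold (4.93 ± 0.18, adjusted p = 3.63e-07). In bulk tissue, fewer cells of a type and less RNA per cell cannot be told apart, which holds for each level given here.

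CCA1 (AT2G46830, chromosome 2, 19245591 to 19248915, plus strand) had 234, 233 and 233 FPKM in cold once, 173, 148 and 191 FPKM in repeated cold, and 22.6, 14.6 and 18.0 FPKM in control. The 3 groups did not overlap, with cold once highest and control lowest. CCA1 was 12.7-fold higher in cold once (3.61 ± 0.15, adjusted p = 5.85e-07) and 9.27-fold higher in repeated cold (3.16 ± 0.15, adjusted p = 2.15e-06). The ratio of LHY to CCA1 was 0.741 to 0.808 in cold once, 0.772 to 0.934 in repeated cold and 0.175 to 0.217 in control, so LHY took a larger part of the pair in all 6 cold libraries than in any control library.

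RVE1, RVE2 and RVE7 link the clock to growth, flowering and light responses, and they went different ways. RVE1 (AT5G17300, chromosome 5, 5690225 to 5692992, minus strand), which promotes auxin production and growth in seedlings, had 121, 136 and 146 FPKM in cold once, 94.8, 88.3 and 120 FPKM in repeated cold, and 4.98, 5.88 and 5.70 FPKM in control. No cold library overlapped a control library. RVE1 was 24.3-fold higher in cold once (4.37 ± 0.13, adjusted p = 1.01e-07) and 18.3-fold higher in repeated cold (3.96 ± 0.13, adjusted p = 2.15e-07). It shares 225 bases with AT5G17305 on the opposite strand, and the strand setting of the counting is not stated.

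RVE2 (AT5G37260, chromosome 5, 14751344 to 14753088, minus strand), also named CIRCADIAN 1, had 511, 536 and 574 FPKM in cold once, 548, 681 and 603 FPKM in repeated cold, and 1.71, 2.09 and 1.45 FPKM in control. The cold groups overlapped each other and stood far from control, where each library held 30 to 41 reads of the gene. Its fold was the highest in the family, 309-fold in cold once (7.63 ± 0.12, adjusted p = 2.99e-09) and 349-fold in repeated cold (7.80 ± 0.12, adjusted p = 2.44e-09). By mean level RVE2 ranked 130th among all genes in cold once, 115th in repeated cold and 16095th in control.

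RVE7 (AT1G18330, chromosome 1, 6305814 to 6308243, minus strand), a phytochrome-responsive member also named EARLY-PHYTOCHROME-RESPONSIVE 1, was not called higher in either cold group. It had 22.5, 18.8 and 16.4 FPKM in cold once, 10.4, 13.7 and 16.4 FPKM in repeated cold, and 17.9, 22.8 and 19.2 FPKM in control. Cold once overlapped control, and every repeated-cold library lay below every control library. The change was -0.06 ± 0.17 in cold once (adjusted p = 0.807) and -0.55 ± 0.17 in repeated cold (adjusted p = 0.0331). The second call was lost under either rescaling (-0.43, adjusted p = 0.0893, and -0.45, adjusted p = 0.0902), with the flower marker score as a covariate (-0.53, adjusted p = 0.0847), and without control replicate 2 (-0.45, adjusted p = 0.105), control replicate 3 (-0.57, adjusted p = 0.0719), repeated cold replicate 1 (-0.39, adjusted p = 0.10) or repeated cold replicate 2 (-0.57, adjusted p = 0.0579). RVE7 values are uncertain in a further way: 1048 of the 1781 windows of 50 bases in its exons (58.8%) occur more than once in the genome, 863 of them in its near copy RVE7L (AT3G10113), which was listed at 0 to 0.0861 FPKM. For RVE3 this share was 2.99%, for RVE2 0.272% and for the other members 0%.

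The other 5 members form the RVE8 group, whose best-known proteins activate evening genes. RVE8 (AT3G09600, chromosome 3, 2946239 to 2949017, plus strand) had 35.4, 38.8 and 37.5 FPKM in cold once, 45.2, 33.8 and 45.2 FPKM in repeated cold, and 11.4, 7.38 and 9.54 FPKM in control. The cold groups overlapped and both stood above control. RVE8 was 3.95-fold higher in cold once (1.89 ± 0.16, adjusted p = 2.50e-05) and 4.39-fold higher in repeated cold (2.03 ± 0.16, adjusted p = 2.94e-05).

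RVE4 (AT5G02840, chromosome 5, 648648 to 651979, plus strand), the member closest to RVE8 in coding sequence (80.5% identical aligned bases), had 53.0, 62.0 and 58.8 FPKM in cold once, 58.0, 61.3 and 54.6 FPKM in repeated cold, and 35, 46 and 35.8 FPKM in control. Each cold library lay above each control library, by a small margin beside RVE8. It was 1.49-fold higher in cold once (0.57 ± 0.12, adjusted p = 0.00395) and changed by 0.57 ± 0.12 in repeated cold (adjusted p = 0.00568). The ratio of RVE8 to RVE4 was 0.626 to 0.668 in cold once, 0.552 to 0.829 in repeated cold and 0.161 to 0.326 in control.

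RVE3 (AT1G01520, chromosome 1, 190408 to 192436, plus strand), one of the less studied members of the group, had 6.68, 12.9 and 9.41 FPKM in cold once, 14.3, 11.8 and 12.1 FPKM in repeated cold, and 1.11, 0.628 and 1.10 FPKM in control. It was the lowest member in control, with 20 to 38 reads per library, and was clear of that level in every cold library. RVE3 was 10.2-fold higher in cold once (2.42 ± 0.21, adjusted p = 2.55e-05) and 13.4-fold higher in repeated cold (2.82 ± 0.21, adjusted p = 1.99e-05), and its change on the log2 scale with 1 added understates the ratio of so low a gene. Its first 65 bases overlap AT1G01510 on the same strand, a gene at up to 13.2 FPKM in cold once, 14 in repeated cold and 15.1 in control.

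RVE6 and RVE5 were not called in either cold group. RVE6 (AT5G52660, chromosome 5, 21359001 to 21362273, minus strand), which acts in part redundantly with RVE4 and RVE8, had 10, 12.6 and 10.6 FPKM in cold once, 11.9, 11.4 and 11.5 FPKM in repeated cold, and 9.96, 9.38 and 9.86 FPKM in control. Its cold libraries lay just above control and its change was not called (0.16 ± 0.10, adjusted p = 0.201, in cold once, and 0.23 ± 0.10, adjusted p = 0.0915, in repeated cold). After median-of-ratios scaling or quantile normalization, which bring the median gene to about 0, RVE6 was called higher in cold once (0.33, adjusted p = 0.0192, and 0.36, adjusted p = 0.0166) and in repeated cold (0.34, adjusted p = 0.0216, and 0.37, adjusted p = 0.0212).

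RVE5 (AT4G01280, chromosome 4, 535198 to 538098, plus strand) had 7.77, 9.24 and 10.2 FPKM in cold once, 10.7, 10.4 and 10.3 FPKM in repeated cold, and 8.62, 9.28 and 8.48 FPKM in control. Cold once overlapped control and repeated cold lay above it. The change was 0.04 ± 0.11 in cold once (adjusted p = 0.801) and 0.23 ± 0.11 in repeated cold (adjusted p = 0.122), the second being called after either scaling (0.34, adjusted p = 0.0396, and 0.36, adjusted p = 0.0287). RVE5 shares 681 bases with AT4G01290 on the opposite strand, which had up to 21.2 FPKM in cold once, 25.1 in repeated cold and 27.1 in control.

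**Figure D2:**
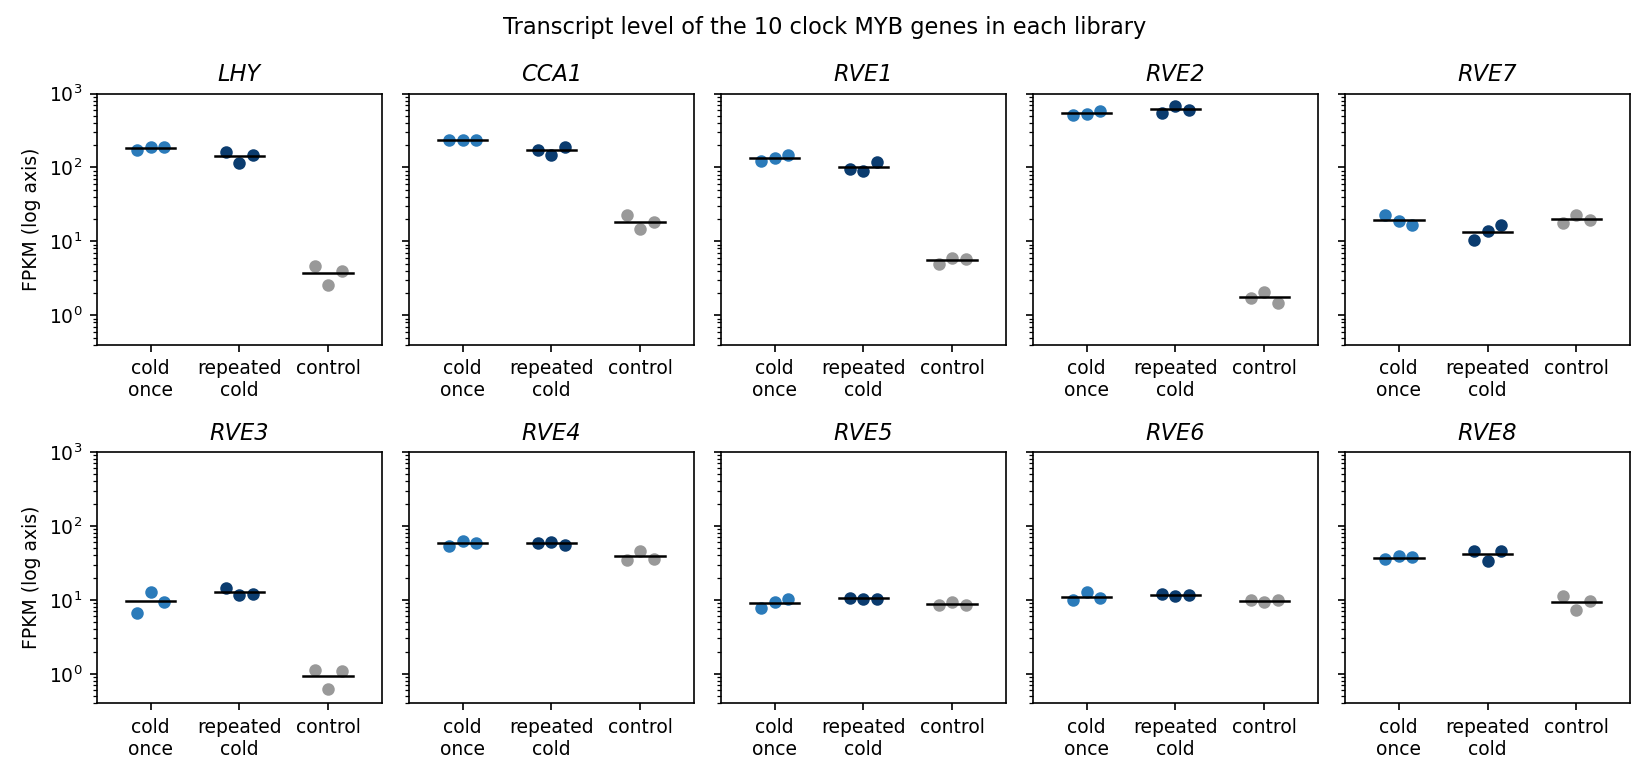
FPKM on a log axis for the 10 genes in each library of cold once, repeated cold and control, with points for libraries in replicate order and lines for group means (n = 3 each). LHY, CCA1, RVE1, RVE2, RVE3 and RVE8 stand well above control in all 6 cold libraries, RVE4 slightly so, and RVE7 lies lowest in repeated cold.

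In cold once against control, 7 of the 10 members were called higher and 0 lower, the background being 18.7% of genes tested called higher and 33.6% called lower (52.3% in all). The uncalled members were RVE5, RVE6 and RVE7 (adjusted p between 0.201 and 0.807). The members' median change was 2.15, beside -0.16 for all genes. All 3 libraries of cold once lay above all 3 of control for 8 members, beside 24% of all genes. RVE3 is in both counts and in the median but passed the filter only through its cold libraries, so its place in them is no support for a direction. The median lies between the changes of RVE8 (1.89) and RVE3 (2.42), so it depends on RVE3.

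In repeated cold against control, 7 members were called higher and 1, RVE7, lower, while 14.6% of all genes were called higher and 24.9% lower (39.5% in all). The median change was 2.42, beside -0.10 for all genes. For 9 members every repeated-cold library lay above every control library (19% of all genes), and for RVE7 every one lay below (31.7%). RVE3 is again among the 7 and the 9, and its place there is no support for a direction either. The median again depends on RVE3, as it lies between the changes of RVE8 (2.03) and RVE3 (2.82). These comparisons share the control libraries, so their values stand side by side and are not independent. By limma's F-test 8 of the 10 members differed among the 3 groups (49.4% of all genes). RVE3 is among the 8 as well, where its place is no support either, and RVE7 was close to the threshold (adjusted p = 0.0454). The count was 7 with no filter on low values, with the flower marker score or with the replicate block, and 7 to 8 over left-out libraries.

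**Figure D3:**
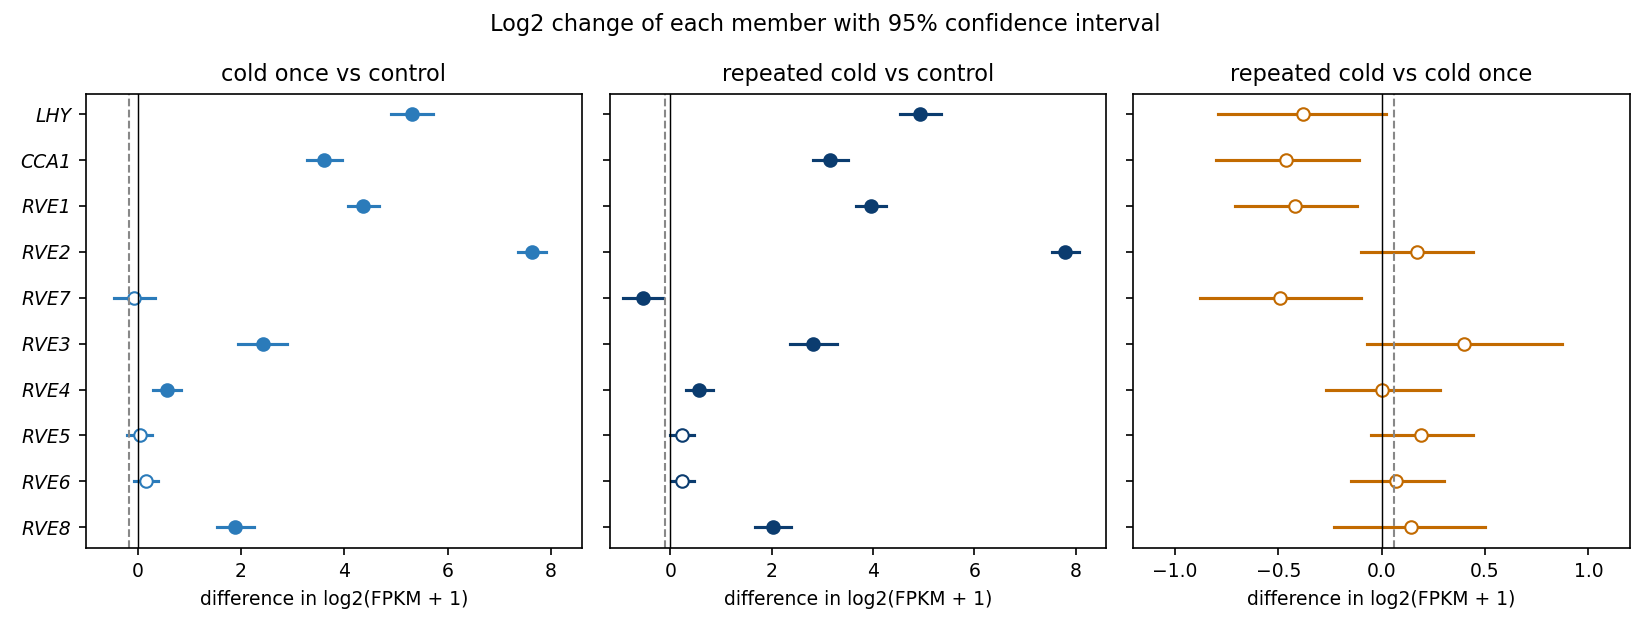
Difference in log2(FPKM + 1) with 95% confidence interval for each of the 10 genes in each cold group against control and, in the last panel, in repeated cold against cold once, filled where called and open where not, with a dashed line at the median gene and a narrower axis in that panel. The 7 rises against control span 0.57 to 7.63 in cold once, and no member is called between the cold groups.

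Between the cold groups no member was called by limma, either higher (0 of 10, beside 0.738% of all genes) or lower (0 of 10, beside 0.536%). The background here was low, 1.27% or 226 genes. Limma's voom on the recovered reads, chosen after seeing the data, also called 0. Limma's unadjusted p was under 0.05 for CCA1, RVE1 and RVE7, each lower in repeated cold. The share of all genes at that threshold is not given here, so these 3 are not read as a trend of the family. For LHY, CCA1, RVE1 and RVE7 every repeated-cold library lay below every cold-once library, for RVE7 by less than the printed digits show (4 of 10 members, beside 9.92% of all genes), and for RVE5 every repeated-cold library lay above (1 of 10, beside 13.9%).

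The intervals show the size of change that remained possible. Mean CCA1 was 171 ± 21.5 FPKM in repeated cold and 233 ± 0.505 FPKM in cold once (SD, n = 3 each), a difference of -0.46 with a 95% interval of -0.80 to -0.11 (adjusted p = 0.152). RVE1 averaged 101 ± 16.6 FPKM in repeated cold and 134 ± 12.7 FPKM in cold once (-0.42, interval -0.71 to -0.12, adjusted p = 0.133). LHY averaged 141 ± 24.1 FPKM in repeated cold and 182 ± 8.14 FPKM in cold once (-0.38, interval -0.79 to 0.02, adjusted p = 0.278). These 3 genes, all far above control in cold, had lower means after 4 cycles without passing the test.

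RVE7 averaged 13.5 ± 2.97 FPKM in repeated cold and 19.2 ± 3.10 FPKM in cold once (-0.49, interval -0.88 to -0.10, adjusted p = 0.168). RVE2, at 611 ± 66.8 FPKM in repeated cold and 541 ± 31.6 FPKM in cold once, differed by 0.17 (interval -0.10 to 0.44, adjusted p = 0.46). In the RVE8 group the differences ran from 0.00 for RVE4 (interval -0.27 to 0.28, and -0.06 under median-of-ratios scaling) to 0.40 for RVE3 (interval -0.07 to 0.87, adjusted p = 0.317), with RVE8 at 0.14 (interval -0.23 to 0.50, adjusted p = 0.673). Misses of the threshold do not show that the levels were alike.

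The order of the members by level changed between cold and control. In cold once it ran RVE2, CCA1, LHY, RVE1, RVE4, RVE8 and RVE7 with no overlap between neighbours, followed by RVE6, RVE3 and RVE5, which overlapped. In repeated cold RVE2 again came first, CCA1, LHY and RVE1 overlapped their neighbours, RVE4 and RVE8 followed without overlap, RVE7, RVE3 and RVE6 overlapped, and RVE5 was last. In control RVE4 was highest at 38.9 ± 6.12 FPKM, RVE7 (20 ± 2.53) and CCA1 (18.4 ± 4.05) overlapped, RVE6 (9.73 ± 0.313), RVE8 (9.43 ± 2.01) and RVE5 (8.79 ± 0.427) overlapped their neighbours in that order, and RVE1, LHY, RVE2 and RVE3 followed without overlap.

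Summed over the family, the level was 1170 to 1280 FPKM in cold once, 1130 to 1210 FPKM in repeated cold and 113 to 120 FPKM in control. The RVE8 group made up 9.61% to 10.9% of that sum in cold once, 11% to 12.4% in repeated cold and 56% to 60.3% in control. RVE2 alone made up 43% to 44.8% in cold once, 48.6% to 58% in repeated cold and 1.28% to 1.73% in control, and LHY with CCA1 made up 32.6% to 34.6% in cold once, 22.4% to 29.6% in repeated cold and 14.2% to 23.1% in control. The ratio of the activator RVE8 to the repressor CCA1 was 0.152 to 0.167 in cold once, 0.229 to 0.262 in repeated cold and 0.503 to 0.529 in control, with no overlap between any of the groups. That separation was not particular to RVE8. RVE4 over CCA1 (0.227 to 0.266 in cold once, 0.286 to 0.414 in repeated cold, 1.54 to 3.16 in control) also kept the groups apart. So did RVE2 over CCA1 (2.19 to 2.47, 3.16 to 4.6 and 0.0755 to 0.143). LHY and RVE1 over CCA1 overlapped between the cold groups. These sums and ratios are descriptions of transcript levels and were not tested.

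**Figure D4:**
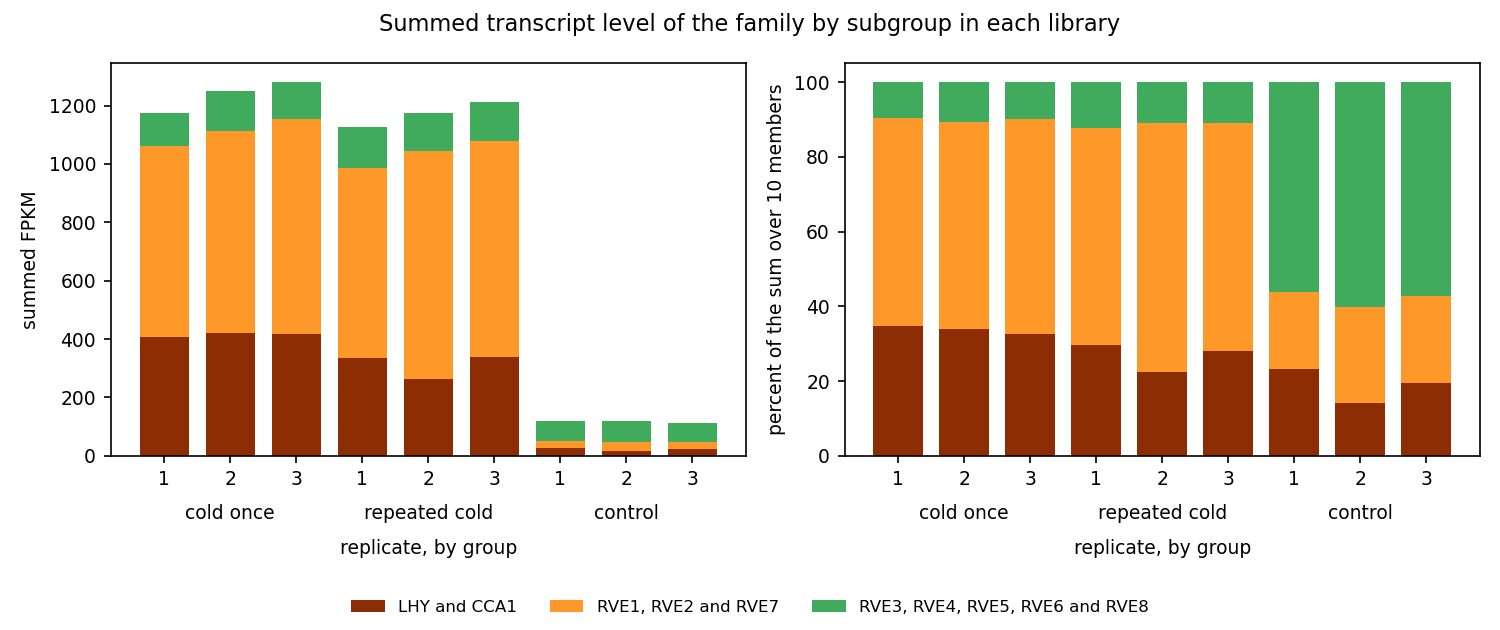
Summed FPKM (left) and percent of the sum over the 10 genes (right) in each library, stacked by LHY with CCA1, by RVE1, RVE2 and RVE7, and by the 5 genes of the RVE8 group, for replicates 1 to 3 of cold once, repeated cold and control. The sum is 1130 to 1280 FPKM in the cold libraries and at most 120 FPKM in control, where the RVE8 group holds 56% to 60.3%.

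Genes that act with or downstream of the family were counted by list and read against the shares of all genes called given above. Each list was chosen by function, but with earlier results of these data known. The 4 LNK cofactors, which bind RVE8-type factors and recruit transcription machinery, were all called higher in both cold groups (4 of 4 each, median change 2.04 in cold once and 1.79 in repeated cold). LNK3 had the largest change (2.95 ± 0.10 in cold once, 2.75 ± 0.10 in repeated cold), then LNK4 (2.42 ± 0.12 and 1.98 ± 0.12), LNK2 (1.67 ± 0.13 and 1.61 ± 0.13) and LNK1 (0.63 ± 0.12 and 0.73 ± 0.12), with adjusted p of at most 0.00208. LNK2 stood at 190, 187 and 187 FPKM in cold once, 178, 160 and 208 FPKM in repeated cold, and 68.9, 55.2 and 52.8 FPKM in control.

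The 5 PRR genes, repressors of LHY and CCA1 expressed in turn through the day, split: 1 rose, 2 fell and 2 were not called in each cold group (median change 0.36 in cold once and 0.23 in repeated cold). PRR5, which acts from the afternoon, had 195, 115 and 125 FPKM in cold once, 79.5, 113 and 123 FPKM in repeated cold, and 18.0, 32.0 and 23.5 FPKM in control (2.51 ± 0.26, adjusted p = 7.79e-05, and 2.07 ± 0.26, adjusted p = 0.000362). PRR7, expressed from the morning, had 25.4, 16 and 16.5 FPKM in cold once, 21.4, 18.3 and 27.8 FPKM in repeated cold, and 76.2, 60.8 and 72.0 FPKM in control (-1.82 ± 0.20, adjusted p = 0.000105, and -1.60 ± 0.20, adjusted p = 0.000349). Both moved in every cold library, in opposite directions. PRR3, the other fall, changed by -1.63 ± 0.20 and -1.27 ± 0.20, but it passed the filter only through control, where it had 1.76, 3.48 and 1.97 FPKM. Its place in the count and in the median is therefore no support for the list's direction. PRR9, the earliest of the series, was at 0.36 ± 0.30 (adjusted p = 0.337) in cold once and 0.41 ± 0.30 (adjusted p = 0.307) in repeated cold, and the evening repressor TOC1 at 0.42 ± 0.24 (adjusted p = 0.173) and 0.23 ± 0.24 (adjusted p = 0.489). TOC1 was called higher in cold once under quantile normalization (0.60, adjusted p = 0.0498).

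Of the evening complex and GI, 4 of 5 genes passed the filter, and in each cold group 1 rose and 1 fell (median change 0.00 in cold once and -0.23 in repeated cold). ELF4, a small subunit of the repressive evening complex, rose by 1.30 ± 0.27 in cold once (adjusted p = 0.00318) and 1.47 ± 0.27 in repeated cold (adjusted p = 0.00251). GI, which acts in clock protein turnover and flowering, had 7.72, 5.65 and 3.18 FPKM in cold once, 3.58, 3.53 and 4.54 FPKM in repeated cold, and 20, 17.5 and 22.4 FPKM in control (-1.74 ± 0.24, adjusted p = 0.000331, and -2.10 ± 0.24, adjusted p = 0.000198). LUX, the DNA-binding subunit, was at 0.54 ± 0.25 (adjusted p = 0.105) and 0.07 ± 0.25 (adjusted p = 0.859), with a call in cold once under quantile normalization (0.75, adjusted p = 0.039). BOA did not pass the filter, at no more than 0.31 FPKM. ELF3, the scaffold of the complex, was at -0.54 ± 0.21 (adjusted p = 0.0577) and -0.53 ± 0.21 (adjusted p = 0.0783), close to the threshold, and was called lower under several alternatives.

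Of 6 other regulators of CCA1 and LHY, 0 rose and 3 fell in each cold group (median change -0.40 in cold once and -0.32 in repeated cold). LWD1, a WD-repeat activator of CCA1, fell by 1.06 in cold once (SE 0.11, adjusted p = 7.20e-05) and by 0.68 in repeated cold (SE 0.11, adjusted p = 0.00129). CKB4, a regulatory subunit of the kinase CK2, which phosphorylates CCA1, fell by 0.53 (SE 0.08, adjusted p = 0.000732) and 0.35 (SE 0.08, adjusted p = 0.00989). LWD2, a relative of LWD1, changed by -0.56 ± 0.15 (adjusted p = 0.0116) and -0.48 ± 0.15 (adjusted p = 0.0291). In cold once it was not called under median-of-ratios scaling (-0.40, adjusted p = 0.0561), quantile normalization (-0.31, adjusted p = 0.127) or the flower marker score (-0.50, adjusted p = 0.0586). In repeated cold it was not called under those settings (-0.34 to -0.43, adjusted p = 0.0834 to 0.109), with no filter (-0.48, adjusted p = 0.0501), or when any 1 control library, or repeated cold replicate 1 or 3, was left out (-0.38 to -0.52, adjusted p = 0.0523 to 0.0967). The change of CKB4 in repeated cold was not called under median-of-ratios scaling (-0.23, adjusted p = 0.0551).

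All 8 cold and clock outputs were called in both cold groups, 5 higher and 3 lower (median change 1.95 in cold once and 1.64 in repeated cold). The CBF genes, activators of cold-responsive genes and known targets of CCA1 and LHY, rose in both. CBF1 changed by 5.01 ± 0.37 in cold once (adjusted p = 1.24e-05) and 5.57 ± 0.37 in repeated cold (adjusted p = 1.29e-05), and CBF3 by 5.51 ± 0.16 (adjusted p = 9.84e-08) and 5.80 ± 0.16 (adjusted p = 1.13e-07). COR27, a cold-regulated repressor within the clock with 2 evening elements in its window, had 11.1, 3.82 and 4.93 FPKM in cold once, 1.69, 4.87 and 6.42 FPKM in repeated cold, and 0.361, 0.633 and 0.40 FPKM in control (2.26 ± 0.41, adjusted p = 0.00155, and 1.74 ± 0.41, adjusted p = 0.00859). COR27 and COR28 passed the filter only through their cold libraries, so their place in the count and in the median is no support for a direction. Its relative COR28 rose by 1.64 ± 0.47 (adjusted p = 0.0154) and 1.54 ± 0.47 (adjusted p = 0.0272), calls that were lost at changes about as large with the flower marker score (1.48, adjusted p = 0.0733, and 1.40, adjusted p = 0.0888) and at somewhat smaller ones without control replicate 1 (1.30, adjusted p = 0.059, and 1.2, adjusted p = 0.0947). In repeated cold, COR28 also lost its call without control replicate 3 (1.49, adjusted p = 0.0748), without repeated cold replicate 3 (1.18, adjusted p = 0.0938) or with a pseudocount of 5 (0.72, adjusted p = 0.0515).

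CCL, a clock output with an evening element, was the strongest fall, at 47.1, 48.6 and 43 FPKM in cold once, 88.1, 98.4 and 93.2 FPKM in repeated cold, and 1200, 1480 and 1350 FPKM in control. The 3 groups did not overlap. It changed by -4.83 ± 0.11 in cold once (adjusted p = 3.16e-08) and -3.83 ± 0.11 in repeated cold (adjusted p = 1.13e-07), and it was the 1 gene of these lists called between the cold groups, 2.02-fold higher in repeated cold (1.00 ± 0.11, adjusted p = 0.0111, or 0.0524 with only those 2 groups in the fit). The RNA-binding protein genes GRP7 and GRP8 were the other falls (-1.17 ± 0.27 and -1.75 ± 0.18 in cold once, -1.30 ± 0.27 and -2.08 ± 0.18 in repeated cold). Evening elements lay before 4 of these 8 outputs (COR27, CCL, GRP7 and GRP8), of which COR27 rose and the others fell. The rise of COR27 is no support for a direction, as it passed the filter only through its cold libraries.

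Of 4 growth and greening outputs, 1 rose and 2 fell in cold once, and 1 rose and 3 fell in repeated cold (median change -1.16 in cold once and -1 in repeated cold). PIF4, a growth-promoting bHLH factor, fell by 2.00 in cold once (SE 0.13, adjusted p = 5.61e-06) and by 1.52 in repeated cold (SE 0.13, adjusted p = 4.03e-05). PORA, a protochlorophyllide reductase gene, changed by -3.96 ± 0.25 and -3.55 ± 0.25, and the auxin synthesis gene YUC8 by 1.01 ± 0.20 and 0.82 ± 0.20. YUC8 passed the filter only through its cold libraries (1.06 to 2.49 FPKM), so its place in the count and in the median is no support for a direction. PIF5 was called lower in repeated cold (-0.47 ± 0.14, adjusted p = 0.0257), but not under median-of-ratios scaling (-0.35, adjusted p = 0.0565), with only those 2 groups in the fit (-0.47, adjusted p = 0.0538), or without control replicate 1 or 3 (-0.40, adjusted p = 0.0883, and -0.47, adjusted p = 0.0679). In cold once it was not called (-0.31 ± 0.14, adjusted p = 0.0893), but it was called lower with the replicate block (-0.31, adjusted p = 0.043), the flower marker score (-0.53, adjusted p = 0.00963) or only those 2 groups in the fit (-0.31, adjusted p = 0.0311), and without repeated cold replicate 2 (-0.31, adjusted p = 0.021).

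**Figure D5:**
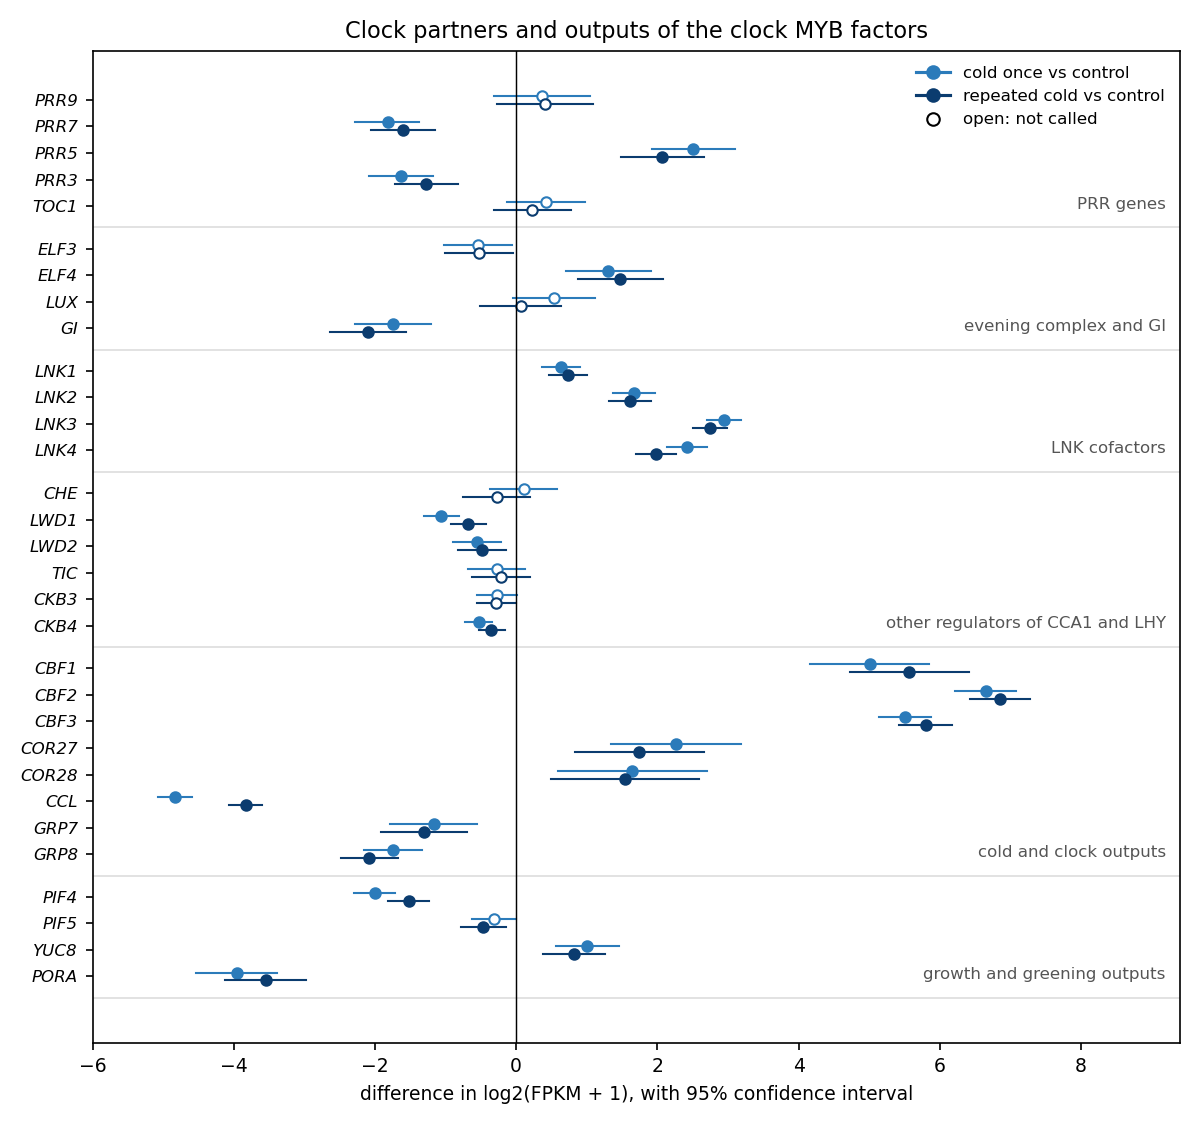
Difference in log2(FPKM + 1) with 95% confidence interval for clock partners and outputs of the clock MYB factors, in cold once and repeated cold, each against control, grouped by list and filled where called. The LNK genes are all to the right of 0, the PRR genes lie on both sides, and CCL is farthest to the left at -4.83 in cold once.

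The genes whose profiles were closest to each member were found from the root mean square difference of centred log2(FPKM + 1) profiles over the 9 libraries, which share the contrast of cold with control. LHY was closest to SAMDC2 (0.25), an S-adenosylmethionine decarboxylase gene of polyamine synthesis, then AT4G27360 (0.27) and ELIP1 (0.38), an early light-induced protein gene. CCA1 was closest to AT4G15430 (0.19), the sugar transporter gene SWEET2 (0.20) and the aspartate oxidase gene AO (0.21), and RVE1 to the plastid beta-amylase gene BAM3 (0.20). RVE8 was closest to the nucleobase transporter gene NCS1 (0.11) and RVE3 to AT2G41250 (0.19), with the cycling Dof factor gene CDF2 next (0.22). Pearson correlations with these genes were between 0.985 and 0.998 over the 9 libraries, and all of these genes share the step between the cold libraries and control.

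For RVE2 the nearest genes were AT4G18422 at 0.35, CBF2 at 0.51 and the Dof-type gene AT1G26790 at 0.68, and its nearest gene was farther off than that of any other member. CBF2 stood at 701, 1060 and 971 FPKM in cold once, 990, 1160 and 966 FPKM in repeated cold, and 6.23, 8.04 and 9.97 FPKM in control. The nearest genes of the other members were IMPL2 for RVE5 (0.05), PHL6 for RVE6 (0.05), AT4G21445 for RVE4 (0.06) and BPC2 for RVE7 (0.15). Within the family the closest profiles were those of RVE5 and RVE6 (0.12), RVE3 and RVE8 (0.39), and CCA1 and RVE1 (0.42). LHY and RVE2 (77.4% identical aligned coding bases) were 1.28 apart in profile, and LHY and CCA1 (69.2%) were 0.82 apart. These shares leave out gaps, and RVE2 has 864 coding bases beside 1938 in LHY and 1827 in CCA1. They therefore do not rank the pairs by relatedness.

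Members lie near clock repressors at 2 places in the genome. CCA1 and PRR9 are 10411 bases apart on chromosome 2 with 3 annotated genes between them, and RVE4 and PRR7 are 6617 bases apart on chromosome 5 with 4 between them. In the first pair CCA1 rose while PRR9 was not called, and in the second RVE4 rose while PRR7 fell.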

How the data were processed

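RNA was sequenced from stems and leaves in 9 libraries, 3 per group, with groups taken from the sample labels. The deposited table gives FPKM computed by the authors for 25320 genes, 1 column per library. TopHat, Cufflinks and Cuffdiff are named, per the submitters' processing notes, without version or role, and strandedness and genome build are not given in the sources used here. Of 25099 loci also in TAIR10.1, 25094 (99.98%) have equal start and end. Whole reads were recovered from the FPKM values and annotated lengths for 24959 genes (98.6%, tolerance 0.01 read), which gives a depth of 17.98 to 21.49 M reads per library. Replicate pairs differed beyond sampling noise (median chi-square 3.6 to 13.34 times its expectation). The table holds no molecular identifiers, so counting error is only part of the error.

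Values were used as log2(FPKM + 1), without rescaling, for the 17740 genes that reached FPKM 1 in 3 or more of the 9 libraries. The group means were estimated in 1 model over the 9 libraries by limma 3.58.1 in R 4.3.3 (empirical Bayes, trended, with 3.21 prior degrees of freedom), p-values were adjusted over all genes by Benjamini-Hochberg, and genes under 0.05 were called. Folds are ratios of mean FPKM, and SDs are over n = 3 libraries. SEs and intervals of changes are limma's moderated ones, from a spread estimated over all 9 libraries. The procedure was also run on simulated reads, with the same excess spread for all genes and independent libraries. That setting is simpler than these data, and no result here rests on it. Tables and figures used Python 3.11.15, numpy 2.4.6, pandas 2.3.3, matplotlib 3.10.9 and Biopython 1.88. The members and lists were chosen with earlier results of these data known. All 10 members are named, with PRR9, PRR7, PRR5, TOC1, ELF4, LUX, GI, LNK1, LNK2, CBF1, CBF3, COR27, COR28, CCL, PIF4, called list genes that complete a count of 5 or fewer, and for each member the 3 genes nearest in profile, of which some are printed. ELF3 and BOA, which were not called, and the library values of CBF2 were added after their values were seen. Protein sequences were not used here. Alternatives changed the pseudocount, the filter, the scaling between libraries, the replicate block, a flower marker score as covariate, the groups in the fit, the model (voom on recovered reads, added after seeing the data) and each library in turn.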

Additional observations from a re-analysis of the deposited data

How the results depend on the processing

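Each result was computed under 19 alternatives, 9 of which leave out 1 library. Members called higher numbered 7 to 8 in cold once against control and 7 to 9 in repeated cold against control, with 7 in each under every left-out library, and no member was called between the cold groups under any of the 19. Members called lower in repeated cold against control numbered 1, and 0 under median-of-ratios scaling, quantile normalization or the flower marker score, with a range of 0 to 1 over left-out libraries; the single gene is RVE7. RVE7 in cold once against control changed sign to 0.12 under median-of-ratios scaling and 0.08 under quantile normalization and ranged from -0.17 to 0.05 over left-out libraries, and RVE5 there ranged from -0.05 to 0.13. RVE4 in repeated cold against cold once was at -0.06 under median-of-ratios scaling and -0.01 with the flower marker score, and ranged from -0.06 to 0.05 over left-out libraries. The 226 genes called between the cold groups became 112 with no filter on low values, 369 under median-of-ratios scaling, 5 with only those 2 groups in the fit (fewer samples to estimate the spread), and 17 to 212 over left-out libraries, with 17 without cold once replicate 3. With the replicate number as a block they became 704, all-gene calls against control were 10054 in cold once and 7988 in repeated cold, members differing among the groups were 7 in place of 8, and counts of members called in each comparison did not change. Same-numbered libraries of different groups deviated together with correlations of -0.11 to 0.46, over 0.1 in 5 of 9 pairs. Different-numbered ones had correlations of -0.44 to 0.20. The main fit did not pair libraries by number, and these values do not settle whether the numbers pair samples. Except where stated, the cause of a change was not tested. The planned edgeR and DESeq2 alternatives were not run, because the deposited unit is FPKM and not counts. Of models for reads, only voom was run on the recovered reads. Depth limits RVE2 and RVE3 in control most, at 20 to 41 reads per library, where folds rest on few reads.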

Other observations

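Libraries of one group differed in how clock genes stood. In cold once, replicate 1 had the lowest level of the group for 8 of the 10 members and the highest for 8 of 10 PRR, evening complex and GI genes. PRR9 had 39.9 FPKM in that library against 23.5 and 15.4 FPKM in the others, and COR27 had 11.1 FPKM against 3.82 and 4.93. CBF1 went the other way, with 123 FPKM in replicate 1 against 402 and 340 FPKM. In repeated cold, replicate 2, the library with 28.7 FPKM of summed flower markers, was lowest for 6 of the 10 members, and replicate 3 was highest for 6 of the 10 PRR, evening complex and GI genes. These values are descriptions within groups of 3 and no test was made. The share of all genes highest or lowest in each library is not given here, so these counts cannot be set against a shift of the whole library.

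Evening elements lay before 2 of 5 PRR genes (PRR5 and TOC1), 2 of 5 genes of the evening complex and GI (LUX and BOA), 4 of 8 cold and clock outputs, 1 of 4 growth and greening outputs (PORA), 0 of 4 LNK genes, 0 of 6 other regulators of CCA1 and LHY, and 1 of 10 members, beside 2.81% of all promoters. The lists are small and were not tested against each other. They were chosen by function around factors that bind this element, so shares above 2.81% are no independent result. GRP7 held 3 evening elements and PRR5 and COR27 held 2 each. Of the genes with an element that were tested, PRR5 and COR27 were called higher in both cold groups, CCL, GRP7, GRP8 and PORA were called lower in both, TOC1 and LUX were called in neither, and RVE7 was called lower in repeated cold, a call lost under the alternatives named with its values. COR27 passed the filter only through its cold libraries, so its place here is no support for a direction.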
